A study of Mus musculus with 9 samples.

Results

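The 10 genes described here are 4 annexins (Anxa2, Anxa3, Anxa5 and Anxa7) and 6 S100 genes (S100a4, S100a6, S100a8, S100a9, S100a10 and S100a11), chosen by symbol as a set tied to tissue injury, out of 24411 genes in a count table of mouse liver. Poly(A) RNA of 9 livers was sequenced, 3 livers per group, from mice that the study's methods give as 3 months of age on a C57BL/6 background. The livers called cont. came from Atg7 flox/flox mice, which carried 2 floxed copies of the autophagy gene Atg7 and no Cre. The Atg7-KO livers came from Atg7 flox/flox;Alb-Cre mice, in which Cre driven by the albumin promoter deletes Atg7 in hepatocytes and leaves it in the other cells of the liver. The S351A livers had the same floxed alleles and Alb-Cre and, on both copies of the gene for p62, the S351A change of a serine to alanine. p62 is a cargo receptor that binds KEAP1, and phosphorylation at this serine raises its affinity. The study reports less KEAP1 in the p62 bodies of S351A livers, though some was still held there. For S351A replicates 2 and 3, the genotype entry names the other allele S352A and S353A, whereas the titles name S351A in all 3, and the titles were followed. All groups shared the floxed alleles, so Atg7-KO and cont. differ by Cre and Atg7 loss, and S351A and Atg7-KO by the p62 allele. The labels give no sex, and by the levels of Xist and Y-linked genes 1 of the 3 cont. livers, 2 of the 3 Atg7-KO livers and 2 of the 3 S351A livers were female, so groups were mixed and unequal in sex. A fit with sex as a covariate called 5, 5 and 0 members in the 3 comparisons, as the fit without it did.

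Annexins are proteins that bind acidic phospholipids when calcium rises, and they act at the cytoplasmic face of membranes in trafficking, in repair of a torn plasma membrane and in contacts with the cytoskeleton. S100 proteins are small calcium-binding proteins with EF-hand motifs, and several of them pair with an annexin, the best known pair being S100A10 with annexin A2, which together dock plasminogen and its activator at the cell surface. S100A8 and S100A9 form calprotectin, an abundant product of neutrophils and monocytes that signals through RAGE and TLR4.

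The members lay on 4 chromosomes of mm10 (GENCODE release M21). Anxa2 was at chr9:69453620-69491795 (plus strand), Anxa3 at chr5:96793339-96845966 (plus strand), Anxa5 at chr3:36448923-36475894 (minus strand) and Anxa7 at chr14:20455260-20480133 (minus strand). The 6 S100 genes were spread over 2961 kb of chromosome 3 and split by a gap of 2825 kb into a stretch with S100a4 (chr3:90603771-90606045), S100a6 (chr3:90612882-90624181), S100a8 (chr3:90668978-90670035) and S100a9 (chr3:90692632-90695721) and a stretch with S100a11 (chr3:93520488-93526287) and S100a10 (chr3:93555080-93564643). Anxa2 is overlapped by the antisense gene Gm16144 and the miRNA gene Mir3109, Anxa3 by the gene model Gm42603, Anxa5 by the miRNA gene Mir7009 and S100a4 by the gene model Gm42674. Of the relatives named here with values, Anxa4 is overlapped by Gm44036, Anxa9 by Mindy1 and the antisense gene 6330562C20Rik, and Anxa11 by the antisense gene Anxa11os. The strand setting of the counting is not given in the sources used here, so reads in these overlaps cannot be told apart. Values are per gene, over all of its transcripts.

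RefSeq (GRCm38.p6) held a promoter entry for 8 of the 10 members, and none was read for Anxa3 and S100a10. The 250 bases before the RefSeq start are printed for the 4 members that were higher in both Cre-carrying groups and had an entry, since these genes moved together. They are chr9:69453433-69453682 (plus strand), chr3:36475888-36476137 (minus strand), chr3:90612644-90612893 (plus strand) and chr3:93520246-93520495 (plus strand), each written 5′ to 3′ along its gene. Capitals mark matches to TGANTCA (the AP-1 site), TATAAA (the TATA box) or TGACNNNGC (the core of the antioxidant response element, which NRF2 binds), searched on both strands.
Anxa2: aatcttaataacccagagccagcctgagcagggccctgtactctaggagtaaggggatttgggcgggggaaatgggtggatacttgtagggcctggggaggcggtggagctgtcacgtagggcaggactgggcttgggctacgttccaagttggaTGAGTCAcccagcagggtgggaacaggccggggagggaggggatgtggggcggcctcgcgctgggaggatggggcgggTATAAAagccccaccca
Anxa5: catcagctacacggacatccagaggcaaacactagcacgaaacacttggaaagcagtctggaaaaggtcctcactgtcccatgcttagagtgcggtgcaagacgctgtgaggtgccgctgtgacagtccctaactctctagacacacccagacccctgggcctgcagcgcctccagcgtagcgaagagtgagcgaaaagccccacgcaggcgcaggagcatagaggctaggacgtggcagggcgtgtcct
S100a6: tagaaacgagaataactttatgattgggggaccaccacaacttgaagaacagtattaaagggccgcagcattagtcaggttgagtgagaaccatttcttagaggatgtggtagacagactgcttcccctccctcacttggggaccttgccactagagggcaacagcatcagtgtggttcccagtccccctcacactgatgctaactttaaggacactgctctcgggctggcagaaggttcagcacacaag
S100a11: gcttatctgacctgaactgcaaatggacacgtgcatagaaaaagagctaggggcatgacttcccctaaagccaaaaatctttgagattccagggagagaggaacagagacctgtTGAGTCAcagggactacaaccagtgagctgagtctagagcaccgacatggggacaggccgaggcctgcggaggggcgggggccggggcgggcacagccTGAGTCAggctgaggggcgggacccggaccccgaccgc
The AP-1 letters stood once upstream of Anxa2, from base -95 to base -89 counted from the start, and at 2 places upstream of S100a11, from -136 to -130 and from -38 to -32. TATAAA was matched upstream of Anxa2 (-17 to -12), S100a4 (-31 to -26) and S100a8 (-30 to -25), and TGACNNNGC in none of the 9 entries of the 8 members. Of 32526 distinct mouse promoter windows of this length, 6.73% held TGANTCA, 12.3% TATAAA and 10.2% TGACNNNGC. A match is a run of letters and not a site shown to be bound.

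Library totals differed widely, with 1875314 to 15426566 counts per cont. library, 1945469 to 3675041 per Atg7-KO library and 713835 to 792366 per S351A library. Every S351A library was therefore shallower than every other library, so the p62 allele and depth cannot be told apart. Levels are given as CPM, counts relative to the library total after TMM scaling, and a library's floor is the level of 3 counts, which ran from 0.269 to 3.73 CPM. Atg7, the gene whose floxed part Cre removes, had means of 48.4 ± 8.20, 28.8 ± 1.16 and 23.0 ± 1.64 CPM (SD, n = 3) in cont., Atg7-KO and S351A, and was called lower in both comparisons with cont. (log2 fold change -0.74 ± 0.19 SE, adjusted p = 0.00758, and -1.07 ± 0.21, adjusted p = 0.00319). Scaling to total counts took both calls away (adjusted p = 0.829 and 0.0614), and scaling with the 20 top genes left out took the Atg7-KO call away (-0.31, adjusted p = 0.208). The hepatocyte markers Alb, Ttr and Hnf4a were present in all libraries, as the label liver asks. In bulk tissue, fewer cells of a type and less RNA per cell cannot be told apart.

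**Figure D1:**
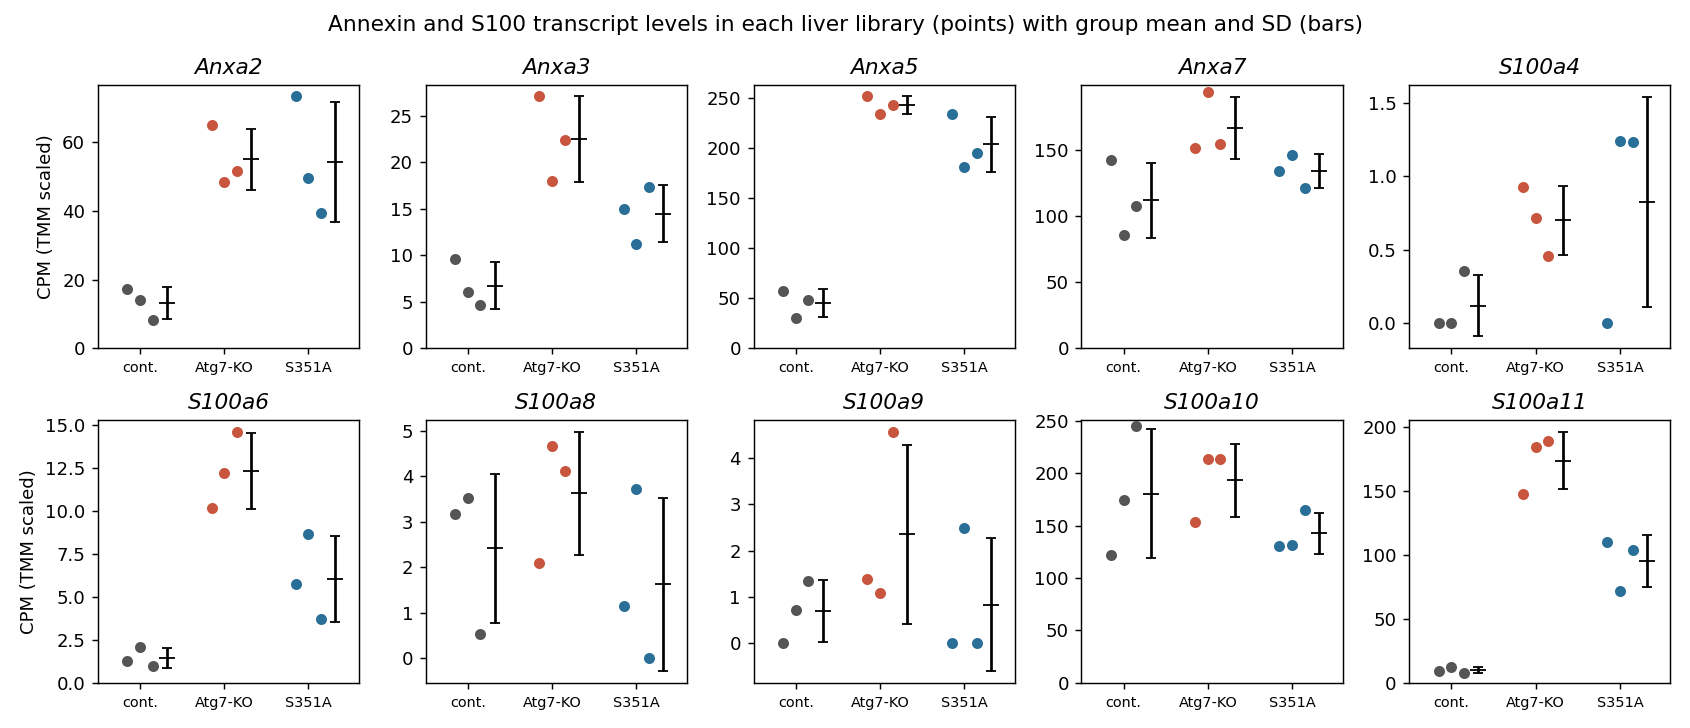
Level of each member in each of the 9 liver libraries (points, CPM after TMM scaling, linear axes that differ between genes), with the group mean and SD beside them (n = 3). For S100a11, S100a6, Anxa5, Anxa2 and Anxa3 all cont. libraries sit below all libraries of Atg7-KO and S351A. S100a10 overlaps between groups, and S100a4, S100a8 and S100a9 sit at a few CPM or less.

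Loss of Atg7 went with higher transcript levels of 5 members. S100a11, S100a6, Anxa5, Anxa2 and Anxa3 were called higher in Atg7-KO than in cont., by 17.6-, 9.03-, 5.40-, 4.51- and 3.68-fold. S100a10, the partner of annexin A2, and Anxa7 were not called, and S100a4, S100a8 and S100a9 had too few counts to be tested. A gene was called at an adjusted p under 0.05 and a fold change above 1.5, and 19.9% of the 11199 tested genes were called higher and 18.1% lower, against 5 and 0 of the 7 tested members. With libraries scaled to total counts, which raised the median of all genes by 0.54, 4284 genes were called higher and 801 lower, in place of 2226 and 2027. The median log2 fold change was 2.17 over these 7 members and -0.03 over all tested genes. A gene can enter the test through the group in which it is high, and no cont. library had more than 11 counts of S100a6, so these shares and medians are descriptions of the tested members and not of all 10.

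S100a11 encodes a calcium sensor that binds annexins. It stood at 9.54, 12.7 and 7.88 CPM in the cont. livers, at 147.8, 184.5 and 188.5 CPM in the Atg7-KO livers and at 110.3, 72.0 and 103.7 CPM in the S351A livers. No library of one group reached the range of another, and Atg7-KO was highest. Relative to cont., its change on the log2 scale was 4.14 ± 0.27 (SE, adjusted p = 1.23e-06) in Atg7-KO and 3.28 ± 0.27 (adjusted p = 1.03e-05) in S351A. The 3 libraries of cont., Atg7-KO and S351A held 139, 1563 and 238 counts of it.

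S100a6, or calcyclin, encodes another partner of annexins. Its level in cont. was 1.27, 2.11 and 0.985 CPM, on 2, 6 and 11 counts. The Atg7-KO livers had 10.2, 12.2 and 14.6 CPM, and the S351A livers 5.74, 8.69 and 3.70 CPM on 5, 7 and 3 counts. All 3 groups were apart from each other, in the same order as for S100a11. The log2 fold change over cont. was 3.17 ± 0.41 in Atg7-KO (adjusted p = 0.000117) and 2.16 ± 0.52 in S351A (adjusted p = 0.00905). Without S351A replicate 2, the library with the highest level of its group, the S351A call was lost (1.81, adjusted p = 0.0627).

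Anxa5 encodes annexin A5, which binds phosphatidylserine and is used as a stain for dying cells. Its levels were 57.2, 30.3 and 48.1 CPM in the cont. livers, 251.9, 234.4 and 242.5 CPM in the Atg7-KO livers and 234.4, 181.3 and 195.0 CPM in the S351A livers. The Atg7-KO livers were close to each other and the cont. livers spread the most relative to their mean. Fitted against cont., the log2 fold change was 2.43 ± 0.25 in Atg7-KO (adjusted p = 2.41e-05) and 2.18 ± 0.25 in S351A (adjusted p = 0.000102).

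Anxa2 encodes annexin A2, the S100A10 partner. It stood at 17.2, 14.1 and 8.15 CPM in the cont. livers, 65.2, 48.5 and 51.7 CPM in the Atg7-KO livers and 73.5, 49.7 and 39.5 CPM in the S351A livers. Every liver with Cre was above every liver without it, and the ranges of Atg7-KO and S351A overlapped. Relative to cont., its change on the log2 scale was 2.17 ± 0.30 in Atg7-KO (adjusted p = 0.00018) and 2.15 ± 0.32 in S351A (adjusted p = 0.000555).

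Anxa3 encodes annexin A3, another of the phospholipid-binding annexins. Its levels were 9.54, 5.99 and 4.66 CPM in the cont. livers, 27.1, 17.9 and 22.4 CPM in the Atg7-KO livers and 14.9, 11.2 and 17.3 CPM in the S351A livers. The 3 groups did not overlap, and S351A lay between the other two. The log2 fold change over cont. was 1.88 ± 0.31 in Atg7-KO (adjusted p = 0.000528) and 1.24 ± 0.36 in S351A (adjusted p = 0.0231). The S351A call rests on 36 counts over 3 libraries and was lost without S351A replicate 1 (adjusted p = 0.0735), S351A replicate 3 (0.073) or cont. replicate 3 (0.0871), in the fit of the 6 compared libraries alone (0.0633) and after thinning every library to 713835 counts (0.158).

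Anxa7 encodes synexin, an annexin that promotes membrane fusion. Its levels were 142.4, 85.9 and 107.7 CPM in the cont. livers, 151.5, 193.8 and 154.7 CPM in the Atg7-KO livers and 134.4, 146.5 and 120.9 CPM in the S351A livers. The Atg7-KO livers were all above the cont. livers, and the S351A livers lay within the upper part of the cont. range and just beyond it. The log2 fold change was 0.58 ± 0.22 in Atg7-KO (adjusted p = 0.0588) and 0.26 ± 0.23 in S351A (adjusted p = 0.42), with 95% intervals of 0.09 to 1.07 and -0.23 to 0.76. Anxa7 passed the thresholds in Atg7-KO with DESeq2 (0.60, adjusted p = 0.0337), with limma-voom (0.59, 0.0462) and without cont. replicate 1 (0.78, 0.0156), and also when thinned, with at least 10 counts in every library or when scaled to total counts, so its call depended on the processing.

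S100a10, whose protein pairs with annexin A2, was called in neither comparison with cont. It stood at 122.1, 174.7 and 244.8 CPM in the cont. livers, 153.1, 213.2 and 213.2 CPM in the Atg7-KO livers and 131.0, 131.6 and 165.4 CPM in the S351A livers, with overlap among all groups. The log2 fold change was 0.09 ± 0.26 in Atg7-KO (adjusted p = 0.82; 95% interval -0.48 to 0.66) and -0.35 ± 0.27 in S351A (adjusted p = 0.361; -0.93 to 0.24). Scaling to total counts, which raised the median of all genes by 0.54 and 0.49, gave 0.64 (adjusted p = 0.0491) and 0.16 (0.644), so the direction in S351A and the call in Atg7-KO depended on the scaling.

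Ratios of counts within a library do not depend on scaling, and were computed after these values had been seen. S100a11 had 0.0781, 0.0726 and 0.0322 counts per count of S100a10 in the cont. livers, 0.965, 0.865 and 0.884 in the Atg7-KO livers and 0.842, 0.547 and 0.627 in the S351A livers. The geometric mean of this ratio was 15.9-fold that of cont. in Atg7-KO and 11.7-fold in S351A, with no overlap of libraries. Anxa2 had 0.141, 0.0806 and 0.0333 counts per count of S100a10 in the cont. livers, 0.426, 0.227 and 0.242 in the Atg7-KO livers and 0.561, 0.377 and 0.239 in the S351A livers, or 3.96- and 5.12-fold the cont. geometric mean. No test is read from these ratios, since 3 against 3 libraries cannot give a permutation p under 0.1. A ratio shows unequal change and not which of the 2 genes changed.

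**Figure D2:**
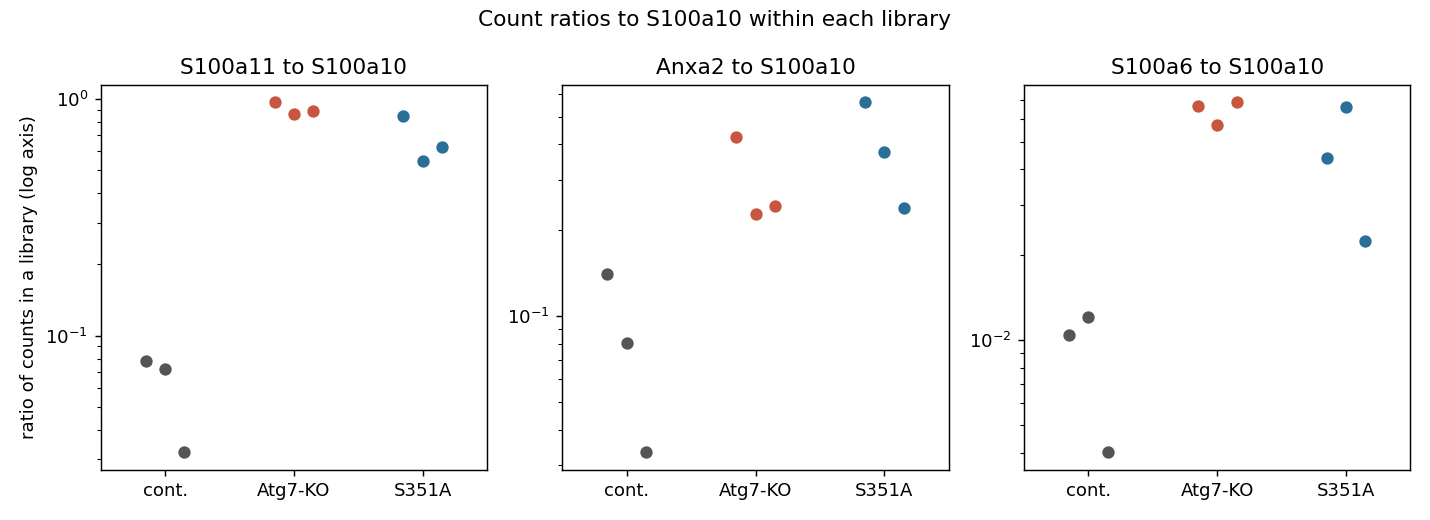
Counts of S100a11, Anxa2 and S100a6 per count of S100a10 in each of the 9 libraries (points, log axes), by group. In each panel all cont. libraries lie below all libraries of Atg7-KO and S351A. For S100a11 the cont. ratios run from 0.0322 to 0.0781 and those of Atg7-KO from 0.865 to 0.965.

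S100a4, S100a8 and S100a9 were close to the limit of detection in every group. S100a4, also known as fibroblast-specific protein, had 0, 0 and 4 counts in the cont. livers, 4, 2 and 1 in the Atg7-KO livers and 0, 1 and 1 in the S351A livers. S100a8 had 5, 10 and 6 counts in the cont. livers, 9, 13 and 9 in the Atg7-KO livers and 1, 3 and 0 in the S351A livers, at mean levels of 2.41 ± 1.63, 3.62 ± 1.36 and 1.62 ± 1.91 CPM (SD, n = 3). S100a9 had 0, 2 and 15 counts in the cont. livers, 6, 3 and 10 in the Atg7-KO livers and 0, 2 and 0 in the S351A livers, at 0.683 ± 0.672, 2.35 ± 1.94 and 0.828 ± 1.43 CPM. The libraries of the groups overlapped for S100a8 and for S100a9. In S351A none of these 3 genes exceeded 3 counts in any library, where 3 counts are 3.45 to 3.73 CPM, so a level below that was not detectable there and no fold change is given.

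The neutrophil markers stood beside calprotectin as follows. Of the 13 markers, 12 were in the table and 1, Csf3r, passed the filter on low counts. It was called higher in both Cre-carrying groups, with ranges of 4.93 to 5.55, 12.8 to 16.02 and 11.2 to 13.8 CPM in cont., Atg7-KO and S351A. The defining marker Cxcr2 had 11, 21 and 5 counts over the 3 libraries of cont., Atg7-KO and S351A. The summed level of the list was 6.69 to 8.90, 16.9 to 23.3 and 17.3 to 23.0 CPM in the same order, most of it Csf3r. Mpo, Elane and Ctsg had no count in any library of cont. or Atg7-KO. The part of neutrophils in the levels of S100a8 and S100a9 was not tested.

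In S351A against cont., the same symbols were called as in Atg7-KO against cont. These were S100a11, S100a6, Anxa5, Anxa2 and Anxa3, at 9.68-, 4.47-, 4.52-, 4.43- and 2.36-fold. Of all tested genes, 15.6% were called higher and 13% lower, against 5 and 0 of the 7 tested members, whose median log2 fold change was 2.15. Scaling to total counts gave 3498 genes higher and 512 lower in place of 1748 and 1460, and leaving out S351A replicate 1 gave 2064 calls in place of 3208. Both comparisons use the same cont. libraries, so their calls are not independent of each other. Here too, shares and medians describe the tested members and not all 10. The share of genes with every library of the first group above every cont. library was 26.7% in Atg7-KO and 19.6% in S351A, and 6 and 5 of the 7 tested members were among them. With a floor of 10 counts in every library, which left Anxa3 and S100a6 untested, and after thinning, which left S100a6 untested, 3 members were called in S351A.

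The p62 allele was compared in S351A against Atg7-KO, and no member was called. All 7 tested members had a fitted log2 fold change below 0, with a median of -0.44 beside 0.01 over all tested genes. Members could pass the filter through Atg7-KO, where S100a6 had 32 to 44 counts per library against 3 to 7 in S351A. The set was also chosen with earlier results of these data known, so these values describe the tested members alone. Of all tested genes, 0.00893% (1 gene) were called, and 739 had an unadjusted p under 0.05 by edgeR's quasi-likelihood test. DESeq2 called 40 genes and no member. S100a11 and S100a6 were the 2 members with an unadjusted p under 0.05. S100a11 was 1.82-fold lower in S351A (log2 fold change -0.86 ± 0.24, 95% interval -1.37 to -0.35, unadjusted p = 0.0031, adjusted p = 0.437). S100a6 was 2.02-fold lower (-1.01 ± 0.42, -1.93 to -0.10, unadjusted p = 0.0329, adjusted p = 0.74). Neither holds after adjustment over all genes.

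The other 5 tested members had an unadjusted p above 0.05 between these 2 groups. Anxa3 had a log2 fold change of -0.64 (95% interval -1.35 to 0.07), S100a10 of -0.44 (-1.02 to 0.15), Anxa7 of -0.31 (-0.81 to 0.18), Anxa5 of -0.25 (-0.77 to 0.26) and Anxa2 of -0.02 (-0.66 to 0.61), with adjusted p from 0.816 to 0.996. The interval for Anxa2 allows a level from 0.635 to 1.52 times that of Atg7-KO, and its sign turned without Atg7-KO replicate 1 (0.12), S351A replicate 2 (0.04) or S351A replicate 3 (0.16). All S351A libraries lay below all Atg7-KO libraries for 5 members, S100a11, S100a6, Anxa3, Anxa5 and Anxa7, and 9.23% of all tested genes showed this. The limit from the filter and the choice of members holds for this count too. For Anxa5 the groups were only just apart. The within-library ratio of S100a11 to S100a10 had a geometric mean in S351A of 0.731 times that of Atg7-KO, that of S100a6 to S100a10 0.628 times with overlapping libraries, and that of Anxa2 to S100a10 1.29 times, also with overlap.

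**Figure D3:**
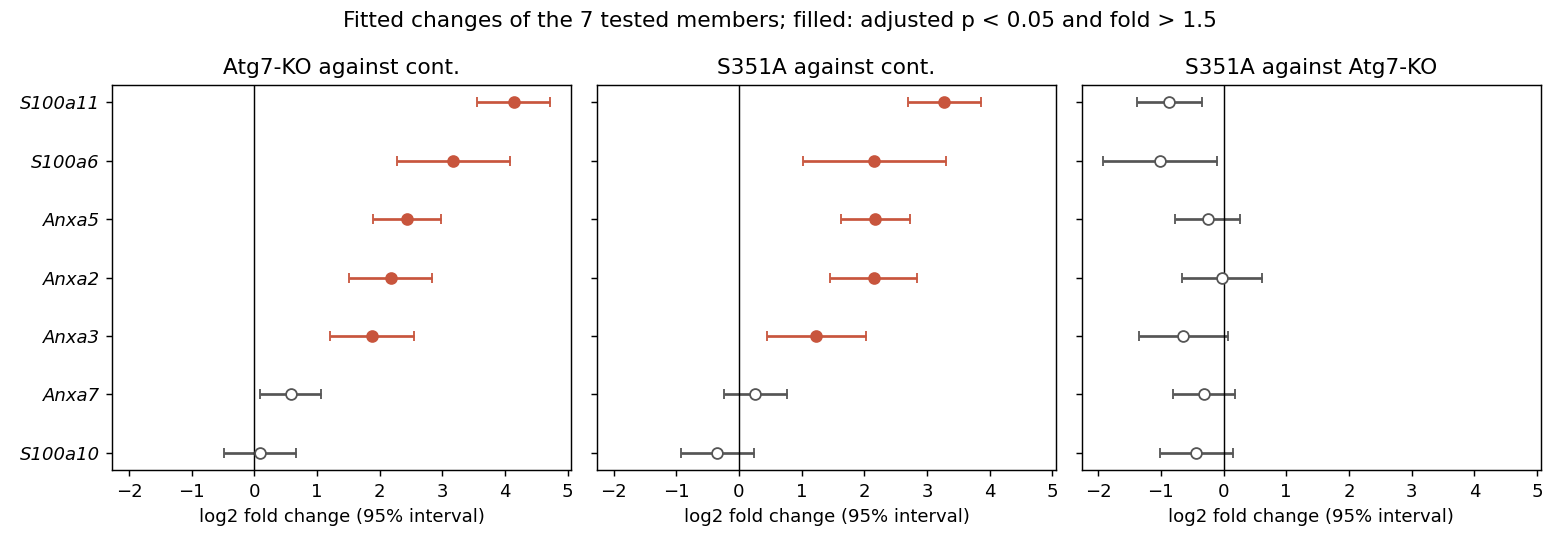
Fitted log2 fold changes (points) with 95% intervals (bars) of the 7 tested members in the 3 comparisons, where filled red points mark calls at adjusted p under 0.05 and a fold change above 1.5. The 5 upper members are called in both comparisons with cont., and no member is called between S351A and Atg7-KO, where all 7 points lie below 0. The S100a10 point of S351A against cont. is above 0 when libraries are scaled to total counts.

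Levels can be compared between members only per length, here as CPM per kb of the union of a gene's exons. In cont. S100a10 had the highest level per kb at 148.9 ± 50.8 (SD, n = 3), followed by Anxa5 at 25.4 ± 7.71, S100a11 at 19.6 ± 4.76 and Anxa7 at 18.7 ± 4.75, and the last 3 did not differ beyond their spread. In Atg7-KO S100a11 came first at 339.7 ± 43.9, ahead of S100a10 at 159.4 ± 28.6 and Anxa5 at 136.7 ± 4.95, which did not differ beyond their spread. In S351A the order was S100a11 at 186.5 ± 40.0, S100a10 at 117.7 ± 16.2 and Anxa5 at 114.5 ± 15.5, where S100a10 and Anxa5 did not differ beyond their spread. With the length of the principal transcript in place of the exon union, S100a10 rather than S100a11 led in S351A (208.3 against 186.5), and S100a10 was above Anxa5 both in Atg7-KO (282.0 against 140.4) and in S351A (208.3 against 117.6), so these orders depended on the length used. S100a11 made up 2.78% ± 1.00 of the members' summed CPM in the cont. livers, 19.8% ± 1.45 in the Atg7-KO livers and 14.5% ± 2.32 in the S351A livers, while the sum itself was 372.3 ± 48.0, 873.1 ± 53.9 and 653.5 ± 48.8 CPM. This share is not corrected for length, so it is read between groups and not between members.

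The remaining annexins moved in both directions. Of 8 other annexins, 6 were tested, of which Atg7-KO had 4 called higher and 1 called lower, against 3 and 0 in S351A. The shares over all tested genes were 19.9% higher and 18.1% lower in Atg7-KO, and 15.6% and 13% in S351A. Anxa13, an annexin of epithelial cells, had means of 1.97 ± 0.656, 35.0 ± 6.00 and 36.3 ± 12.98 CPM (SD, n = 3) in cont., Atg7-KO and S351A, and was 20.8- and 21.5-fold higher (log2 fold change 4.38 ± 0.36, adjusted p = 4.68e-06, and 4.43 ± 0.38, adjusted p = 1.35e-05). The size of this Anxa13 change rests on 4, 6 and 14 counts in the cont. livers, and its log2 value ran from 3.16 when thinned to 4.95 with scaling to total counts in Atg7-KO, and from 3.27 to 4.94 under the same settings in S351A, with the call kept. Anxa9 rose from 4.54 ± 1.88 to 30.9 ± 15.4 and 33.1 ± 10.5 CPM (log2 fold change 2.79 and 2.88). Anxa4, also found in epithelia, rose from 81.8 ± 12.9 to 145.1 ± 2.01 and 138.6 ± 12.7 CPM (0.83 and 0.77), and its S351A call was lost without the filter on low counts (0.67, adjusted p = 0.052). Anxa11 was called lower in Atg7-KO (log2 fold change -0.92 ± 0.24, adjusted p = 0.00833) and was at -0.69 ± 0.27 in S351A (adjusted p = 0.0727), and its Atg7-KO call was lost when libraries were scaled to total counts (-0.38, 0.225) or to counts without the 20 top genes (-0.49, 0.121). The fourth annexin called higher in Atg7-KO, Anxa1, stayed under 10 CPM on average in every group, and Anxa8 and Anxa10 had no count in any library.

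The S100 family outside the members had no gene called higher. Of 10 other S100 genes, 3 were tested, and S100a1, known best from heart and muscle, was called lower in both groups. Its mean fell from 119.8 ± 52.7 CPM to 38.0 ± 7.46 and 37.7 ± 3.94 CPM (SD, n = 3) (log2 fold change -1.68 ± 0.30, adjusted p = 0.00105, and -1.68 ± 0.33, adjusted p = 0.00272), and its direction held under each scaling tried. S100a13 and S100a16 were not called, with log2 fold changes of -0.57 and -0.40 in Atg7-KO and -0.37 and -0.40 in S351A. Among tested S100 genes, S100a11 and S100a6 were thus called higher, S100a1 lower, and S100a10, S100a13 and S100a16 neither way. Of the genes with too few counts to test, S100b had 3, 22 and 3 counts over the libraries of cont., Atg7-KO and S351A. S100g had 6, 6 and 16, of which 11 were in a single S351A library.

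**Figure D4:**
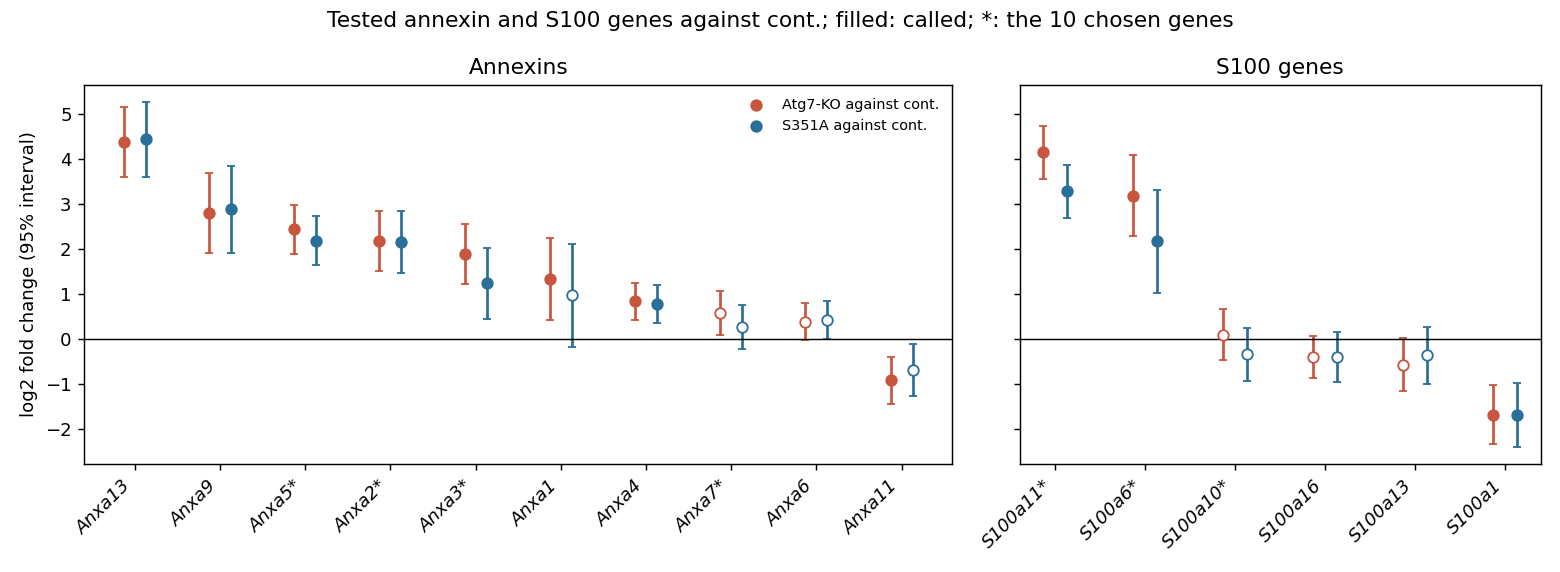
Log2 fold changes against cont. (points, with 95% intervals) of the tested annexins and S100 genes in Atg7-KO (red) and S351A (blue), with filled points for calls and asterisks on the 10 chosen genes. Anxa13 lies above every chosen annexin and S100a1 lies lowest. Scaling to total counts moves S100a10 of S351A above 0 and removes the Anxa11 call.

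Genes whose products act with the members were described next. Of 7 receptors and adaptors of S100A8 and S100A9, 5 were tested and 2 were called higher in each comparison with cont., none lower. Among all tested genes 19.9% were called higher in Atg7-KO and 15.6% in S351A. Cd14, the co-receptor of TLR4 for lipopolysaccharide, rose from 2.67 ± 1.58 CPM (SD, n = 3) to 38.3 ± 4.32 in Atg7-KO and 34.9 ± 8.83 in S351A (log2 fold change 4.18 ± 0.35 and 4.05 ± 0.38, adjusted p = 5.64e-06 and 2.38e-05). Cd36, a scavenger receptor for fatty acids, rose from 62.9 ± 37.0 to 187.7 ± 20.7 and 150.7 ± 21.7 CPM (1.59, adjusted p = 0.00608, and 1.28, 0.0277), and its S351A call was lost in the fit of 6 libraries alone (0.0554) and without S351A replicate 1 (0.0791) or 2 (0.0914). Ager, which encodes RAGE, and Tlr4 did not pass the filter, at 35, 41 and 12 and at 26, 26 and 2 counts over the libraries of cont., Atg7-KO and S351A.

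In the plasminogen system, which the annexin A2 and S100A10 pair brings to the cell surface, 4 of 6 genes were tested. Plat, tissue plasminogen activator, had 2, 0 and 0 counts in the cont. livers, all at or under the floor, and averaged 16.2 ± 1.99 and 13.8 ± 10.1 CPM (SD, n = 3) in the Atg7-KO and S351A livers. Against the mean floor of the cont. libraries this was at least 15.1-fold higher and at least 12.8-fold higher. The S351A bound leans on replicate 1, since the S351A libraries had 25.3, 6.21 and 9.87 CPM on 22, 5 and 8 counts. Plau, urokinase, was called higher in both groups, from 1.28 ± 0.122 CPM to 5.30 ± 1.59 and 10.1 ± 5.66 CPM. Plg, plasminogen itself and a product of hepatocytes, was called lower in both, from 1970 ± 198 CPM to 953.1 ± 48.3 and 1144 ± 148 CPM (log2 fold change -1.05 and -0.78, adjusted p = 0.00295 and 0.0202). Both Plg calls were lost with scaling to total counts (-0.52, adjusted p = 0.0776, and -0.31, 0.314), and the S351A call also with the top genes left out (0.185), in the fit of 6 libraries alone (0.101) and without S351A replicate 1 (0.0868) or 2 (0.062).

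Of 7 genes for membrane repair partners of annexins, all tested, 5 were called higher in Atg7-KO and 3 in S351A, and none was called lower. Over all tested genes 19.9% and 15.6% were called higher, and 18.1% and 13% lower. Ahnak, a giant scaffold that binds the annexin A2 and S100A10 pair, rose from a mean of 24.7 ± 4.66 CPM to 103.8 ± 10.7 and 72.7 ± 19.3 CPM (SD, n = 3; log2 fold change 2.05 ± 0.23 and 1.54 ± 0.24, adjusted p = 4.43e-05 and 0.000745). The calpain subunits Capn1, Capn2 and Capns1 were called higher in Atg7-KO at log2 fold changes of 0.85, 0.82 and 0.83, and in S351A Capn2 alone of these passed both thresholds (0.72). Cav1 was called higher in both groups (1.99 and 2.18). Its S351A libraries, at 13.8, 2.48 and 8.64 CPM on 12, 2 and 7 counts, overlapped cont. In S351A against Atg7-KO none of the genes in these lists was called.

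Many but not all markers of several cell types were called higher in the groups where members were called higher. Of the tested markers, 8 of 8 for ductular cells, 11 of 16 for macrophages and 7 of 10 for stellate cells and fibroblasts were called higher in Atg7-KO, and 8, 10 and 7 in S351A. For all tested genes the shares called were 19.9% higher and 18.1% lower in Atg7-KO, and 15.6% and 13% in S351A. The macrophage marker Timd4 was called lower in Atg7-KO (log2 fold change -1.92, adjusted p = 0.00814) and had -0.96 in S351A (adjusted p = 0.226). The defining macrophage marker Clec4f was called in neither group (-0.16 and -0.61), and its S351A libraries (68.9 to 111.1 CPM) lay below cont. (124.0 to 179.2). Lrat, a defining stellate marker, was not called either (0.56 and 0.46). The other defining markers of these lists, Adgre1, Csf1r, Col1a1 and Pdgfrb, were called higher in both groups. Of 7 endothelial markers, 1 (Lyve1) was called higher in both groups and 3 (Stab2, Clec4g and Tek) were called lower in Atg7-KO and none in S351A, with summed levels of 113.2 to 209.5, 137.1 to 167.5 and 118.0 to 156.7 CPM in cont., Atg7-KO and S351A. Of 2 tested lymphocyte markers 1 was called higher, and of 3 tested erythroid markers 2 were called lower, in both groups. The summed level of the ductular list was 75.7 to 126.5, 877.2 to 1288 and 799.7 to 1292 CPM in cont., Atg7-KO and S351A. In Atg7-KO and S351A most of it was Spp1 (603.4 to 879.7 and 442.1 to 760.5 CPM) and Sox9 (191.3 to 283.3 and 153.0 to 379.1 CPM). The defining markers stood far lower there, with Krt19 at 9.69 to 16.7 and 11.1 to 24.1 CPM. Krt7 had 3.59 to 8.35 and 3.70 to 10.3 CPM, and Epcam 8.24 to 13.9 and 8.69 to 19.5 CPM. The macrophage list summed to 274.6 to 432.1, 586.5 to 729.4 and 465.7 to 520.8 CPM, and the stellate list to 271.4 to 533.1, 1258 to 1735 and 1183 to 1683 CPM, in the same order of groups. None of the defining markers of these 3 lists was at 0 over a group, and Epcam came nearest with at most 1.08 CPM in a cont. library. Of 9 hepatocyte markers, 7 were called lower in both groups, with sums of 49020 to 106132, 34107 to 40935 and 32208 to 45751 CPM. In S351A against Atg7-KO no marker was called. The part of these cell types in the levels of the members was not tested.

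The genes whose pattern was most like that of a member were looked for among 8809 tested genes with a mean of at least 10 CPM, by the root mean square difference of log2 CPM relative to the cont. mean over 9 libraries. The nearest gene was Marcks for Anxa2 (0.17), Clip2 for Anxa3 (0.24), Rgs2 for Anxa5 (0.26), Itfg3 for Anxa7 (0.11), Gltp for S100a6 (0.19), Emc4 for S100a10 (0.11) and Abr for S100a11 (0.27). A small value says that 2 genes had like profiles over these libraries and nothing more.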

How the data were processed

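The measurements are RNA-seq of poly(A) RNA from 9 livers, 3 per group. The deposited table holds expected counts per gene, which the authors made with Trim Galore, STAR (mm10) and RSEM, without scaling between libraries; versions and annotation are not given in the sources used here. Between 4.40% and 7.75% of the values in a library were not whole and all were rounded, and 0 columns belonged to other samples. Groups came from the titles. The study gives the 3 livers of a group as biological replicates.

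Counts were tested with edgeR 4.0.16 (R 4.3.3): filterByExpr (minimum count 10, minimum total 15), TMM scaling, 1 quasi-likelihood model over 9 libraries and Benjamini-Hochberg adjustment over 11199 genes. A gene was called at an adjusted p under 0.05 and a fold change above 1.5. The code was tested on simulated data. Alternatives used DESeq2 1.42.0, limma 3.58.1, other scalings, filters and thresholds, thinning, a sex covariate, a replicate block and leaving out each library. The 95% intervals come from the quasi-likelihood fit and so include the estimated spread between livers, while floors (3 counts) cover counting error only. Gene names and lengths came from GENCODE M21, which held 23376 of the 24411 symbols.

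Replicate numbers were checked for pairing. Deviations of same-numbered libraries correlated with r = 0.235, 0.175 and 0.160 between cont. and S351A, where differently numbered ones had -0.260 to 0.0937. They had r = 0.248, 0.091 and -0.041 between cont. and Atg7-KO, against up to 0.212 for differently numbered ones. Between Atg7-KO and S351A they had 0.306, 0.074 and 0.092, against up to 0.124. So few values cannot decide whether libraries were paired, no test was made, and the labels give no pairing. The main model used no pairing, and a replicate block changed no call of a member.

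The members and the lists of relatives, partners and markers were chosen with earlier results of these data known. Named genes were all members, Atg7, and from the lists up to 4 called genes per list and direction with the largest fold changes among those whose higher group averaged 10 CPM or more, receptors of members, the nearest gene in pattern and defining markers. Capn1, Capn2, Capns1, Cav1, S100a13, S100a16, Timd4, Lyve1, Clec4g, Tek, Spp1, Sox9 and the genes named for having few counts were added after their values were seen.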

Additional observations from a re-analysis of the deposited data

How the results depend on the processing

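Each of the 21 fold changes of members (7 genes, 3 comparisons) was recomputed under the alternatives, 411 values in all, and 390 kept both direction and side of the thresholds. S100a11, Anxa5 and Anxa2 stayed called in both comparisons with cont. under each alternative, with log2 fold changes from 3.07 to 4.67, 1.96 to 2.97 and 1.82 to 2.70, and S100a6 and Anxa3 stayed called in Atg7-KO wherever they could be tested. Members called in S351A fell from 5 to 3 with at least 10 counts in every library and to 3 when thinned. The median member log2 fold change in Atg7-KO was 2.70 with total library size, 2.6 with the top genes left out, 1.64 with no filter (10 members) and 1.82 when thinned (6 members). In S351A it was 2.62, 2.53, 1.33 and 1.46 under the same settings. Leaving out 1 library gave medians from 1.84 to 2.39 in Atg7-KO and from 1.72 to 2.21 in S351A. Without cont. replicate 1, S100a10 in Atg7-KO turned to -0.12. S100a10 in S351A against cont. turned to 0.16 with total library size and 0.057 with the top genes left out. Leaving out 1 library gave values from -0.31 to 0.16 for Anxa2 in S351A against Atg7-KO and from -0.12 to 0.37 for S100a10 in Atg7-KO against cont. The cause of these shifts was not tested. Anxa7 in S351A passed the thresholds with total library size (0.73, adjusted p = 0.0317). Without the filter S100a4, S100a8 and S100a9 were not called in any comparison (adjusted p from 0.311 to 1), and 98 genes were called in S351A against Atg7-KO in place of 1. The replicate block gave 2.14 for Anxa2 in Atg7-KO and 3.29 for S100a11 in S351A against cont. and changed no call of a member. Total library size gave 4284 calls higher and 801 lower in Atg7-KO, in place of 2226 and 2027, and 3498 and 512 in S351A, in place of 1748 and 1460. Calls over all genes fell to 2504 in Atg7-KO and 1941 in S351A with at least 10 counts in every library, where 6887 genes were tested, and to 2619 and 2058 when thinned, where libraries held fewer counts and 8629 genes were tested. In S351A against cont. leaving out S351A replicate 1 gave 2064 and leaving out S351A replicate 2 gave 2096, and between S351A and Atg7-KO leaving out 1 library gave 0 to 3 calls. Depth limits S351A most, where S100a6 rests on 15 counts and Anxa3 on 36.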
